A study of Mus musculus with 40 samples.

Results

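The 10 genes Axin2, Lgr5, Ascl2, Nkd1, Notum, Rnf43, Znrf3, Sp5, Lef1 and Tcf7, which Wnt signaling is known to switch on, were followed through every cell type sorted from a mouse model of colon tumors that starts from loss of Apc. They were chosen by name as textbook Wnt targets, and all 10 were found among the 45706 genes of the expression tables. RNA had been sequenced from 40 libraries in 10 groups of 4, covering epithelial cells, stromal cells, neutrophils and monocytes from tumors, epithelial and stromal cells from healthy colon, and neutrophils and monocytes from the blood of tumor-bearing and healthy mice. Sorting gates were EpCAM+ CD45- for epithelial cells, EpCAM- CD45- for stromal cells, CD45+ CD11b+ MHCII- Ly6G+ Ly6C-low for neutrophils and CD45+ CD11b+ MHCII- Ly6G- Ly6C-high for monocytes. Tumor-bearing mice carried Cdx2CreERT2 and Apc fl/fl and had received a single tamoxifen dose of 25 mg/kg at 8 to 10 weeks of age, which activates a Cre recombinase driven by Cdx2 in the colon. Their background is given as C57Bl6/Sv129 for the first library, with a suffix that counts upwards in the libraries that follow, so it was read as C57Bl6/Sv129 throughout. Healthy mice were C57Bl6 without transgene or agent and their age is not given, so Apc loss, tamoxifen, Cre and background cannot be told apart in any comparison of tumor with healthy tissue. Titles of 4 blood libraries name 2 animals each, and p-values measure the spread between these libraries.

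Without a Wnt signal, a cytoplasmic complex built on Apc and Axin proteins marks β-catenin for degradation. When Wnt ligands bind their Frizzled and Lrp receptors, or when Apc is lost, β-catenin accumulates, enters the nucleus and activates genes together with DNA-binding proteins of the TCF/LEF family. Many of the genes it activates are inhibitors of the same pathway, and others mark the stem cells at the base of intestinal crypts, which depend on Wnt ligands from neighboring cells.

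Promoter sequences are shown for a pair of members, Sp5, a transcription factor gene induced directly by Wnt, and Axin2, the member most used as a reporter of the pathway, because TCF/LEF proteins read a short motif in DNA. RefSeq promoter windows (build GRCm38.p6, 250 bases before to 50 after the gene start) were found for 7 members, Axin2, Ascl2, Nkd1, Rnf43, Sp5, Lef1 and Tcf7, in 12 windows in all. Lgr5, Notum and Znrf3 were not matched. The motif was searched as ATCAAAG and TTCAAAG and, for the other strand, CTTTGAT and CTTTGAA, which do not overlap another motif searched. It was found in 1 of these 12 windows, that of Sp5, and 8.65% of all 32851 windows hold it. The 250 bases before the start are given 5′ to 3′ for Sp5 at chr2:70474673-70474922 and for Axin2 at chr11:108920099-108920348, both on the plus strand. Capitals mark the motif, which begins at position -104 relative to the start of Sp5, and Axin2 has none in this window.
Sp5: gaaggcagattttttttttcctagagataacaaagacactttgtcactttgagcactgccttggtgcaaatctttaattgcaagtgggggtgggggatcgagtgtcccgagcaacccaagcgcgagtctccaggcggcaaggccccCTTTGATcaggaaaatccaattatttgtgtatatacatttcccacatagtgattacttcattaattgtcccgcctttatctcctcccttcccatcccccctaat
Axin2: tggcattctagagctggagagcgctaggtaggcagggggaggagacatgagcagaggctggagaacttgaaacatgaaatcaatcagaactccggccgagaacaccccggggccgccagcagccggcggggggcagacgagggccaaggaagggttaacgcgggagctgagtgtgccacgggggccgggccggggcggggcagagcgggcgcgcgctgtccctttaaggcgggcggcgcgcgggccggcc
A match is a description of the letters, and the libraries do not measure binding.

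Counts on genes totaled 10717873 to 38002939 per library. Mitochondrial genes took 48.6% to 83.9% of them in healthy epithelial cells and 46.3% to 60.5% in tumor epithelial cells, against 5.34% to 37.5% in the sorted blood and myeloid groups. The RPKM values, reads scaled by the authors to gene length and library size, were not corrected for that share. Healthy epithelial replicate 4, with the highest share, had the lowest RPKM of its group for 8 of the 10 members. Fold changes come from edgeR, which rescales each library, so they can differ from ratios of RPKM. The deleted gene itself, Apc, was at 5.97, 6.51, 6.02 and 6.31 RPKM in the tumor epithelial libraries and at 3.34, 2.52, 2.14 and 0.343 RPKM in the healthy ones (log2 fold change 1.13, with a standard error, SE, of 0.31 and edgeR adjusted p = 0.0228). Values per gene cannot show whether an exon is missing, so they do not check the deletion.

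In epithelial cells, 8 of the 10 members rose from healthy colon to tumor and none fell. A gene was called when its p-value in edgeR's quasi-likelihood test, adjusted by Benjamini-Hochberg, was under 0.05 with a log2 fold change above 1.5 in either direction, and 7.52% of the 16085 genes tested were called higher and 7.88% lower by this rule. The median log2 fold change was 3.38 over the members and -0.01 over all genes tested. The filter on low counts can pass a gene on its tumor libraries alone, so this count and median are a description. Nkd1, Notum, Sp5 and Lef1 rose from means of 0.0112 to 0.126 RPKM in healthy epithelium, Tcf7 rose from 0.304 RPKM, Axin2, Rnf43 and Znrf3 rose from 1.44 to 1.66 RPKM, and the stem cell genes Lgr5 and Ascl2 were not called. Markers of differentiated epithelium moved as well. The summed level of 7 mature colonocyte markers was 137.3 to 1030 RPKM in healthy and 1.95 to 23.5 RPKM in tumor epithelial libraries, that of 5 goblet cell markers 52.2 to 905.6 and 11.8 to 50.1 RPKM, and their part in the members' change was not tested.

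**Figure D1:**
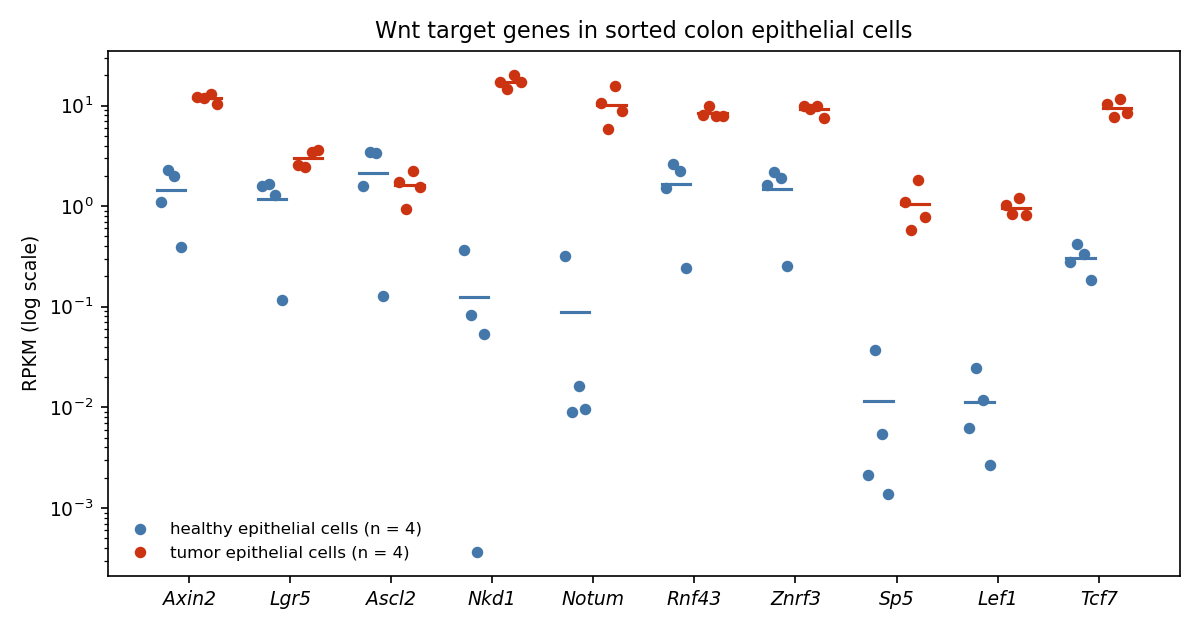
RPKM (log scale) of the 10 members in each of the 4 healthy and 4 tumor epithelial libraries, with points for libraries and lines for group means. Points of both groups lie apart for every member except Ascl2, and Nkd1 shows a mean of 0.126 against 17.3 RPKM.

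Axin2, Nkd1, Notum, Rnf43 and Znrf3 encode inhibitors that act back on the pathway, and all 5 rose. Axin2 (ENSMUSG00000000142, mm10 chromosome 11 from 108920349 to 108950783), a scaffold of the β-catenin degradation complex, was at 1.10, 2.29, 1.99 and 0.393 RPKM in healthy and 12.2, 12, 13 and 10.5 RPKM in tumor epithelial cells. The lowest tumor library thus lay far above the highest healthy one, and the log2 fold change was 2.57 (SE 0.21, edgeR adjusted p = 3.4e-05). Nkd1 (ENSMUSG00000031661, chromosome 8 from 88521354 to 88594884), which binds Dishevelled and dampens signaling, had the highest level of the members in tumor epithelium. Its healthy libraries held 0.367, 0.0836, 0.000366 and 0.0536 RPKM and its tumor libraries 17.1, 14.7, 20.3 and 17.2 RPKM. The log2 fold change of Nkd1 was 6.33 (SE 0.93, edgeR adjusted p = 8.11e-04), and it ran from 5.86 to 7.44 when single libraries were left out, the top value being that without healthy replicate 1. Nkd1 stood at rank 144 and Notum at rank 147 of the 16085 genes ordered by fold change. Notum (ENSMUSG00000042988, chromosome 11 from 120653788 to 120661175), a secreted enzyme that removes the lipid from Wnt ligands, was at 0.319, 0.00900, 0.0162 and 0.00966 RPKM in healthy and 10.6, 5.78, 15.5 and 8.79 RPKM in tumor epithelial cells. Most of its healthy signal sat in replicate 1, and the groups did not overlap (log2 fold change 6.28, SE 0.93, edgeR adjusted p = 8.9e-04). Without healthy replicate 1 the log2 fold change of Notum was 9.23.

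Rnf43 and Znrf3 encode membrane ubiquitin ligases that remove Frizzled receptors from the cell surface. Rnf43 (ENSMUSG00000034177, chromosome 11 from 87662722 to 87735539) was at 1.52, 2.65, 2.23 and 0.244 RPKM in healthy and 8.11, 9.86, 7.86 and 7.81 RPKM in tumor epithelial cells. Its log2 fold change was 2.01 (SE 0.28, edgeR adjusted p = 5.72e-04), and the call was lost in an edgeR fit of all 40 libraries together, where the adjusted p-value was 0.0951. Znrf3 (ENSMUSG00000041961, chromosome 11 from 5276324 to 5444847) was at 1.63, 2.19, 1.90 and 0.255 RPKM in healthy and 9.90, 9.31, 9.97 and 7.52 RPKM in tumor epithelial cells. The log2 fold change of Znrf3 was 2.23 (SE 0.24, edgeR adjusted p = 1.5e-04), close in size to that of its paralog, and neither gene had overlapping groups.

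Of the members that encode transcription factors, Sp5, Lef1 and Tcf7 rose in tumor epithelial cells and Ascl2 was not called. Tcf7 (ENSMUSG00000000782, chromosome 11 from 52252371 to 52283014), which encodes the β-catenin partner TCF1, was at 0.278, 0.419, 0.332 and 0.186 RPKM in healthy and 10.3, 7.68, 11.6 and 8.48 RPKM in tumor libraries. Its log2 fold change was 4.19 (SE 0.36, edgeR adjusted p = 4.62e-05). Lef1 (ENSMUSG00000027985, chromosome 3 from 131110471 to 131224356), another partner of the same family, was at 0.00621, 0.0243, 0.0117 and 0.00264 RPKM in healthy and 1.03, 0.834, 1.21 and 0.810 RPKM in tumor libraries. The rise of Lef1 was larger on the log2 scale than that of Tcf7 (log2 fold change 5.92, SE 0.40, edgeR adjusted p = 1.37e-05), although its mean level per length of gene in tumors was 0.969 ± 0.186 RPKM against 9.53 ± 1.79 for Tcf7 (SD, n = 4). Sp5 (ENSMUSG00000075304, chromosome 2 from 70474923 to 70477729), whose promoter is shown above, was at 0.00214, 0.0370, 0.00544 and 0.00137 RPKM in healthy and 1.09, 0.577, 1.80 and 0.773 RPKM in tumor libraries. Healthy libraries held at most 5.63 expected counts of Sp5, so its log2 fold change of 5.84 (SE 0.81, edgeR adjusted p = 6.06e-04) rests on very few reads on the healthy side and became 7.54 without healthy replicate 2.

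Neither of the members known as markers of crypt stem cells was called. Lgr5 (ENSMUSG00000020140, chromosome 10 from 115450311 to 115587780), a receptor for R-spondins, was at 1.60, 1.66, 1.30 and 0.116 RPKM in healthy and 2.55, 2.43, 3.42 and 3.65 RPKM in tumor epithelial cells. Every tumor library lay above every healthy one, and a 2-sided exact permutation test of the RPKM means gave p = 0.0286, the smallest that the 70 arrangements of 4 against 4 libraries allow. In edgeR the log2 fold change was 0.99 (SE 0.33, adjusted p = 0.0567), so Lgr5 passed neither the threshold on p nor that on fold change. The adjusted p-value ran from 0.0183 to 0.135 when single libraries were left out, and the log2 fold change from 0.75 to 1.27. Ascl2 (ENSMUSG00000009248, chromosome 7 from 142966829 to 142969264), a transcription factor of the stem cell program, was at 1.57, 3.47, 3.41 and 0.127 RPKM in healthy and 1.75, 0.941, 2.26 and 1.55 RPKM in tumor epithelial cells. The groups overlapped, the exact permutation test gave p = 0.543, and edgeR gave a log2 fold change of -0.68 (SE 0.46, adjusted p = 0.340). Ascl2 was the member whose direction depended on scaling, with 0.16 on the log2 scale in a limma fit of log2(RPKM + 0.1).

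For the other 9 members, groups of tumor and healthy epithelial libraries did not overlap in RPKM, and each gave an exact permutation p of 0.0286. That p-value restates the lack of overlap, and the share of all genes without overlap was not counted. RPKM also leans to higher values in tumor epithelium. Of genes called in limma on log2(RPKM + 0.1), 73.7% were higher, against 48.8% in edgeR, so the 9 are a description. Leaving out any 1 of the 8 epithelial libraries left 8 members called. A required minimum of 10 counts in every library removed Nkd1, Notum, Sp5 and Lef1 from the test, and 4 members, Axin2, Rnf43, Znrf3 and Tcf7, were then called.

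Other genes of the pathway were counted from lists of textbook names, to be read against the 7.52% of all genes called higher and the 7.88% called lower. Of 25 other Wnt targets, 24 were tested in epithelial cells, of which 11 rose and 1 fell, with a median log2 fold change of 1.5. Dkk2, a secreted modulator of Wnt receptors, and Wnt6, a ligand, had the largest fitted changes, but with 3 counts or fewer in every healthy library they are given as levels, 3.81 ± 3.20 against 0.00312 ± 0.00277 RPKM (SD, n = 4) for Dkk2 and 1.78 ± 0.773 against 0.00450 ± 0.00523 RPKM for Wnt6. Wif1 and Apcdd1, both secreted or membrane-bound Wnt inhibitors, followed with log2 fold changes of 6.76 (SE 0.72, edgeR adjusted p = 1.34e-04) and 6.37 (SE 1.01, edgeR adjusted p = 0.00124). The gene of this list that fell, named after its value was seen, was Hnf4a, a transcription factor of differentiated gut epithelium (log2 fold change -2.53, edgeR adjusted p = 2.71e-04). Among receptors and R-spondins, 13 of 18 genes were tested, 3 rose (Lgr6 by 5.43, Fzd10 by 3.34 and Fzd6 by 2.58 on the log2 scale) and the receptor Fzd5 fell (-1.68). Of 19 genes of the degradation complex and the nuclear partners of β-catenin, 17 were tested, Pygo1 (log2 fold change 4.15) and Tle2 (1.90) rose and Tcf7l1 fell (-2.0), counts near those shares. Ctnnb1, which encodes β-catenin and was looked up outside the naming rule, had a log2 fold change of 0.75 (edgeR adjusted p = 0.0130) and was not called.

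Across all 10 groups, tumor epithelial cells had the highest mean RPKM for 9 members and tumor stromal cells the second highest for the same 9, and the libraries of these 2 groups overlapped for each of them. The exception was Ascl2, which had its highest mean in healthy epithelial cells (2.15 ± 1.61 RPKM, SD, n = 4), ahead of tumor epithelial cells (1.62 ± 0.544) and tumor stromal cells (0.835 ± 0.762), with overlap between each pair. Tumor neutrophils came next for Axin2, Nkd1, Notum, Znrf3, Sp5 and Lef1. Over the 40 libraries, log2(RPKM + 1) of a member correlated with the mean of the standardized values of the other 9 at Pearson's r of 0.653 for Ascl2 and 0.856 to 0.973 for the rest, a description over libraries that share groups and depth.

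**Figure D2:**
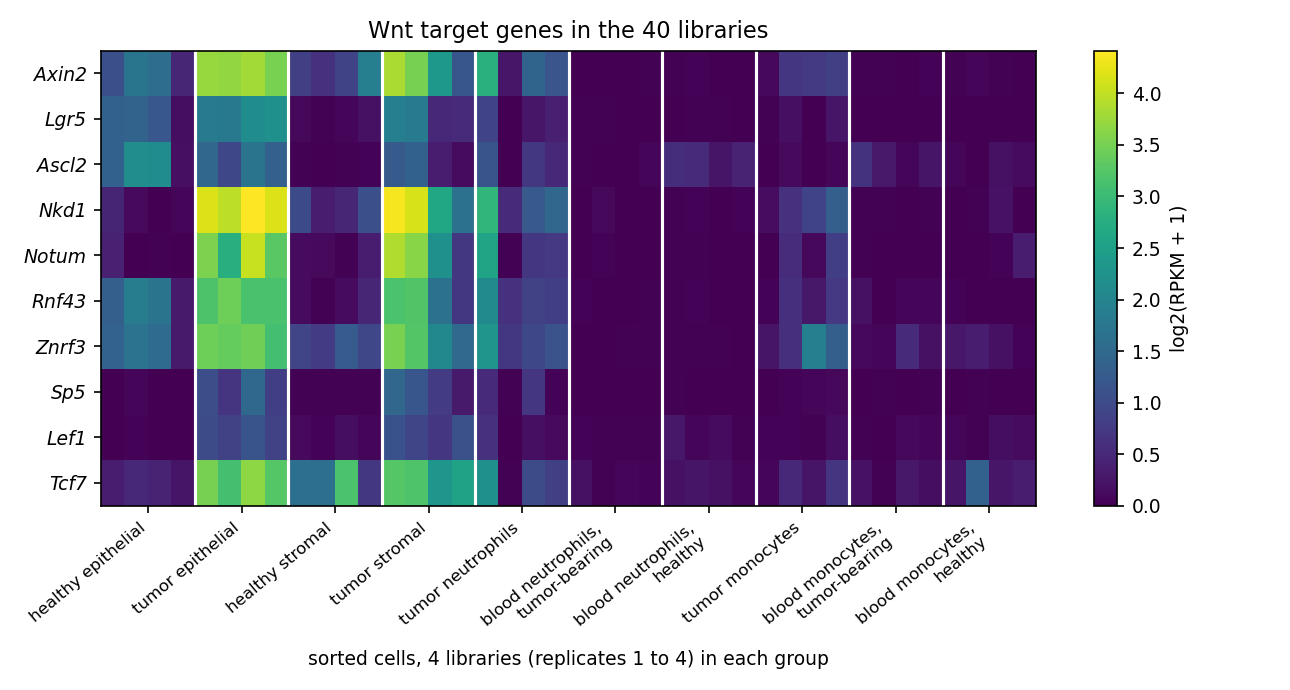
Color shows log2(RPKM + 1) of the 10 members (rows) in the 40 libraries (columns, 4 for each group, replicates 1 to 4 from left to right). Tumor epithelial libraries and tumor stromal replicates 1 and 2 are brightest, with Nkd1 up to 20.3 RPKM, and blood libraries are dark except for faint Ascl2 and Tcf7.

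In sorted stromal cells, 8 of the 10 members rose from healthy colon to tumor as well, where 3.39% of the 19081 genes tested were called higher and 5.01% lower. Over the members the median log2 fold change was 4.67, against 0.03 over all genes. Here too the filter can pass a gene on its tumor libraries alone, so the count and median are a description. Tumor stromal libraries held few fibroblast transcripts, with a summed level of 7 fibroblast markers of 6.03 to 24.1 RPKM against 359.5 to 2017 RPKM in healthy stroma. They also held epithelial transcripts, with a summed level of 13 epithelial markers of 246.6, 143.6, 59.9 and 33.8 RPKM in replicates 1 to 4 against 6.39 to 24.7 RPKM in healthy stroma. The 4 libraries were not alike. The summed level of 5 endothelial markers was 4.39, 3.74, 111.4 and 121 RPKM in replicates 1 to 4. It was 4.31 to 4.67 RPKM in tumor epithelial cells and 25.2 to 121.2 RPKM in healthy stroma. Summed over 7 neutrophil markers, the level was 41.15, 8.585, 1514 and 513.9 RPKM in tumor stromal replicates 1 to 4. In healthy stroma these neutrophil markers were at 6.26 to 43.5 RPKM. Mitochondrial genes took 55.4%, 62.9%, 27.4% and 24.8% of counts in tumor stromal replicates 1 to 4. The part of these markers in the rise of the members was not tested, and whether fewer cells of a type or less RNA per cell lies behind a level cannot be told apart in bulk samples.

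Axin2 was at 13.5, 10.4, 4.09 and 1.26 RPKM in tumor stromal replicates 1 to 4 and at 0.777, 0.551, 0.867 and 2.75 RPKM in healthy stroma. Tumor replicate 4 lay below healthy replicate 4, and Axin2 was not called (log2 fold change 2.96, SE 0.82, edgeR adjusted p = 0.0554). Nkd1 was at 19.4, 16.8, 5.23 and 2.14 RPKM in tumor and 0.992, 0.276, 0.381 and 1.10 RPKM in healthy stroma (log2 fold change 4.41, SE 0.84, edgeR adjusted p = 0.0157). The same order of tumor libraries, replicates 1 and 2 at the level of sorted tumor epithelium and replicates 3 and 4 below it, was seen for Notum, Rnf43 and Znrf3. Notum had 13.8, 11.4, 3.63 and 0.633 RPKM in tumor and 0.0991, 0.0802, 0.0237 and 0.277 RPKM in healthy stroma (log2 fold change 6.31, edgeR adjusted p = 0.0134). Rnf43 had 8.01, 8.24, 2.17 and 0.646 RPKM against 0.0898, 0.0191, 0.0997 and 0.391 RPKM (log2 fold change 5.41, edgeR adjusted p = 0.0235). For Znrf3 the values were 10.5, 8.45, 3.16 and 1.83 RPKM against 0.901, 0.703, 1.41 and 0.921 RPKM (log2 fold change 3.04, edgeR adjusted p = 0.0164), so that healthy stroma held more Znrf3 than Rnf43 per length of gene.

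Lgr5 and Ascl2, not called in epithelial cells, were called higher in tumor stroma. Lgr5 was at 2.75, 2.56, 0.406 and 0.460 RPKM in tumor and 0.0626, 0.0219, 0.0385 and 0.15 RPKM in healthy stroma (log2 fold change 4.93, edgeR adjusted p = 0.0162). Ascl2 was at 1.37, 1.60, 0.278 and 0.0883 RPKM in tumor and 0.0120, 0, 0.0121 and 0.0349 RPKM in healthy stroma (log2 fold change 6.12, edgeR adjusted p = 0.0193), on at most 3.73 expected counts in a healthy library. Sp5 was at 1.74, 1.27, 0.725 and 0.254 RPKM against 0.0154 to 0.0227 RPKM in healthy stroma (log2 fold change 5.89, edgeR adjusted p = 0.00483). For all 3 genes every tumor library lay above every healthy one, a description, since the share of all genes without overlap was not counted in stroma either.

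Lef1 and Tcf7 are also expressed by T cells. Lef1 was at 1.17, 0.893, 0.631 and 1.14 RPKM in tumor and 0.0787, 0.0248, 0.122 and 0.0615 RPKM in healthy stroma (log2 fold change 4.15, SE 0.50, edgeR adjusted p = 0.00473). Tumor replicate 4, lowest for 7 of the other members, was second highest for Lef1. Tcf7 was at 8.48, 8.13, 3.98 and 4.84 RPKM in tumor and 2.06, 2.06, 7.93 and 0.649 RPKM in healthy stroma, the groups overlapped, and it was not called (log2 fold change 1.45, SE 0.67, edgeR adjusted p = 0.220). The summed level of 9 T cell markers was 0.865, 1.28, 10.0 and 19.6 RPKM in tumor stromal replicates 1 to 4 and 5.70, 3.50, 17.2 and 3.38 RPKM in healthy stroma, highest in tumor replicate 4 and healthy replicate 3. The part of T cell markers in Lef1 and Tcf7 was not tested.

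These stromal calls rested on few libraries. Without healthy stromal replicate 1 or 2 the count of members called fell to 4 and 3. Calls over all genes fell as well, from 1602 of 19081 (40.3% of them higher) to 876 of 19375 (26.6%) and 827 of 20048 (26.7%). Without both tumor stromal replicates 1 and 2, the libraries with the most epithelial transcripts, 6 members were called. In that fit 1192 of the 20786 genes tested were called in either direction. Rnf43 missed the threshold on p there (log2 fold change 3.50, edgeR adjusted p = 0.0780). Replicates 3 and 4, which stayed in that fit, held epithelial markers at summed levels of 59.9 and 33.8 RPKM, so it does not test the part of epithelial transcripts. Between tumor epithelial and tumor stromal cells no member was called, none had an unadjusted p under 0.05 in edgeR, and 4.09% of the 19026 genes tested were called in either direction. Limma-voom and DESeq2 also called 0 members there. Log2 fold changes of the members in that comparison lay between 0.05 and 0.95, with standard errors of 0.67 to 1.10. That fit also holds the tumor neutrophil and monocyte libraries, so these errors do not measure the spread of epithelial and stromal libraries alone.

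**Figure D3:**
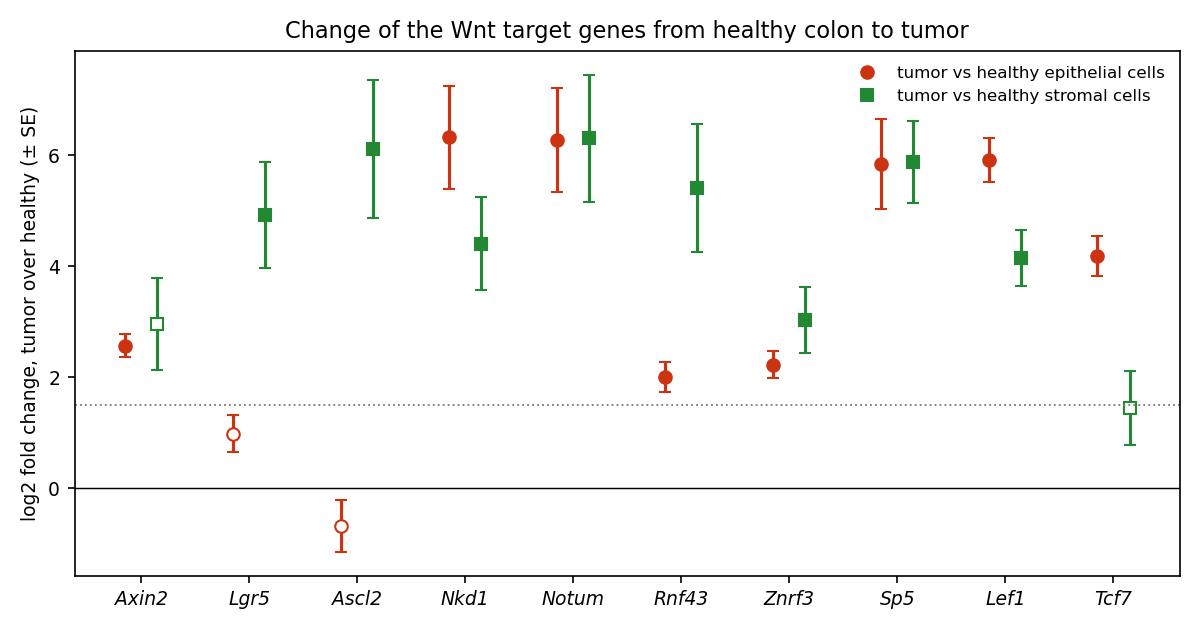
Log2 fold change (tumor over healthy) with its standard error from edgeR for each member in epithelial (circles) and stromal cells (squares), 4 libraries in each group. Filled symbols are called members and the dotted line is a log2 fold change of 1.5. Lgr5 and Ascl2 lie higher in stromal cells (4.93 and 6.12) than in epithelial cells (0.99 and -0.68).

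An interaction term fitted to 16 libraries asked whether epithelial and stromal gates changed by different amounts from healthy colon to tumor, and 5 members had an edgeR adjusted p under 0.05, where 15.1% of the 20901 genes tested did. The change was larger in the stromal gate for Lgr5 (log2 difference, epithelial minus stromal, -3.93, SE 0.97, adjusted p = 0.0126), Ascl2 (-6.77, SE 1.25, adjusted p = 0.00212) and Rnf43 (-3.38, SE 1.09, adjusted p = 0.0482). It was larger in epithelial cells for Lef1 (1.79, SE 0.57, adjusted p = 0.0468) and Tcf7 (2.73, SE 0.78, adjusted p = 0.0274). When single libraries were omitted, the difference of Lef1 missed the threshold in 14 of 16 cases, that of Rnf43 in 12, that of Tcf7 in 6 and those of Lgr5 and Ascl2 in none. Without tumor stromal replicates 1 and 2, only the differences of Ascl2 (-4.41, adjusted p = 0.0119) and Tcf7 (3.39, adjusted p = 0.0256) passed. Healthy levels are a term of this difference, so they add no separate support, and the part of epithelial transcripts in tumor stromal libraries was not tested. Of 18468 genes tested between healthy epithelial and healthy stromal cells, 11.5% were called higher and 19.4% lower. Among the members, edgeR called Lgr5, Ascl2 and Rnf43 higher and Lef1 and Tcf7 lower in healthy epithelial cells. That count of 5 fell to 3 without healthy epithelial replicate 1, 2 or 3. Over all genes 6158, 5706 and 5754 were then called in either direction, against 5702 in the main fit.

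In neutrophils, 7 members passed the filter on low counts in the comparison of tumor with blood of tumor-bearing mice, and 6 of them were called higher in tumor, where 11.9% of the 13674 genes tested were called higher. Ascl2, Notum and Sp5 did not pass the filter, and Lef1 was not called (log2 fold change 2.68, edgeR adjusted p = 0.0822). The filter can pass a gene on the strength of the tumor libraries alone, so the count is a description. Axin2 was at 5.94, 0.197, 1.68 and 1.24 RPKM in tumor neutrophils and 0.00584 to 0.0128 RPKM in blood (log2 fold change 7.86, SE 0.96, edgeR adjusted p = 7.72e-04). Nkd1 was at 6.53, 0.458, 1.34 and 1.74 RPKM in tumor and 0.00123 to 0.0673 RPKM in blood neutrophils (log2 fold change 6.83, edgeR adjusted p = 0.00409). In both cases replicate 1 was highest and replicate 2 lowest of the tumor libraries. Rnf43 (log2 fold change 6.26, edgeR adjusted p = 7.89e-04) and Znrf3 (7.01, 5.07e-04) showed the same ends, while Lgr5 (4.5, 0.0139) and Tcf7 (4.23, 0.0343) had tumor replicate 2 within the range of blood. Lgr5 was at 0.858, 0.00873, 0.202 and 0.308 RPKM and Tcf7 at 3.64, 0.0192, 1.00 and 0.794 RPKM in tumor neutrophils. Omitting 1 of the 8 libraries at a time removed the call of Tcf7 in 5 cases and that of Lgr5 in 1 case. In limma fits of log2(RPKM + 1), which understate changes of low genes, 1 member was called.

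In monocytes, 6 members were tested and Axin2, Nkd1 and Znrf3 were called higher in tumor than in blood, where 7.76% of the 15280 genes tested were called higher. Axin2 was at 0.0683, 0.630, 0.691 and 0.777 RPKM in tumor and 0.00459 to 0.0250 RPKM in blood monocytes (log2 fold change 5.36, SE 0.87, edgeR adjusted p = 0.00218). Nkd1 had 0.109, 0.539, 0.844 and 1.53 RPKM in tumor and 0.00869 to 0.0163 RPKM in blood (log2 fold change 5.99, edgeR adjusted p = 0.00102). Znrf3 was at 0.196, 0.523, 2.74 and 1.52 RPKM in tumor and 0.0596 to 0.432 RPKM in blood (log2 fold change 3.10, edgeR adjusted p = 0.0386), the groups overlapped, and omission of a single library removed the call in 5 of 8 cases. Axin2 and Nkd1 had at most 7.26 and 4.75 expected counts in a blood monocyte library and passed the filter through the tumor libraries, so this count too is a description. Rnf43, Lef1 and Tcf7 were tested and not called, and Lgr5, Ascl2, Notum and Sp5 did not pass the filter.

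Levels in tumor monocytes were well below those in tumor epithelium, and all 10 members were called higher in tumor epithelial cells than in tumor monocytes, where 14.9% of 19026 genes were called higher. Against tumor neutrophils 2 members were called higher in epithelial cells, Nkd1 (log2 fold change 2.25, edgeR adjusted p = 0.0370) and Tcf7 (2.31, adjusted p = 0.0461), where 3.93% of genes were called higher. Titles carry a number, read here as that of the mouse, and some numbers occur in several cell types. With that number as a block, none of the 10 members was called in this comparison or between tumor neutrophils and monocytes. Of 19026 genes, that block left 2506 called in the first (7.54% of them higher) and 901 in the second (56.9% higher). The count of 2 was 8 without tumor neutrophil replicate 1, and 0 without any 1 of the 4 tumor epithelial libraries or without tumor neutrophil replicate 3 or 4. Calls over all genes moved as well, from 4102 of 19026 (18.2% higher) to 6875 of 19840 (44.5% higher) without tumor neutrophil replicate 1. Omitting 1 tumor epithelial library left 3289 to 3319 calls, 10.3% to 13.6% of them higher. Omitting tumor neutrophil replicate 3 or 4 left 3312 (8.73% higher) and 3216 (7.9% higher). Tumor neutrophils were called above tumor monocytes for Ascl2, Sp5 and Tcf7, where 9.82% of genes were called higher, and this count of 3 ran from 0 (without tumor monocyte replicate 1 or 3) to 5 (without tumor neutrophil replicate 2 or tumor stromal replicate 4). Calls over all genes were 2629 in the main fit and 1629 and 1861 without tumor monocyte replicate 1 or 3. They were 2488 without tumor neutrophil replicate 2 and 2556 without tumor stromal replicate 4.

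Sorted cells outside the epithelial gate were next described beside 13 epithelial markers, among them Epcam, Cdh1 and Krt8. For each library, the RPKM of a member is given as a percentage of its mean in tumor epithelial cells, and the epithelial level is the median of the same percentage over the markers. Tumor stromal replicate 1 stood at 93.96% for the markers and 84.7% to 164.6% for the members, and replicate 2 at 47.6% and 85.1% to 119.8%. Replicates 3 and 4 had marker levels of 20.9% and 12.1%, with members at 13.5% to 68.5% and 5.45% to 117.9%, the top being Sp5 in replicate 3 and Lef1 in replicate 4. Set against the marker level times the tumor epithelial mean, 7, 10, 8 and 6 of the 10 members lay above it in replicates 1 to 4. In tumor neutrophils, replicate 1 had a marker level of 80.8% with members at 28.5% to 74.1%, and replicate 2 had 16.4% with members at 0.201% to 7.03%. None of the 10 members reached the marker level in these 2 libraries, whereas 2 did in replicate 3 (17.4%, members at 6.09% to 59.6%) and 9 in replicate 4 (5.01%, members at 2.86% to 26.2%). In tumor monocytes, replicate 2 had the highest marker level, 19.6%, and members at 2.58% to 6.16%, all below it. The marker levels of replicates 1, 3 and 4 were 0.695%, 3.96% and 3.33%, and 3, 4 and 9 members lay above them. These counts depend on the markers. Against the 50 most abundant tumor epithelial transcripts with under 1% of that level in healthy stroma or in blood, 6, 10, 8 and 7 members lay above in tumor stromal replicates 1 to 4, 3, 0, 4 and 8 in tumor neutrophils and 7, 0, 1 and 7 in tumor monocytes. Axin2, Ascl2 and Lef1 were the 3 above that level in tumor neutrophil replicate 1.

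**Figure D4:**
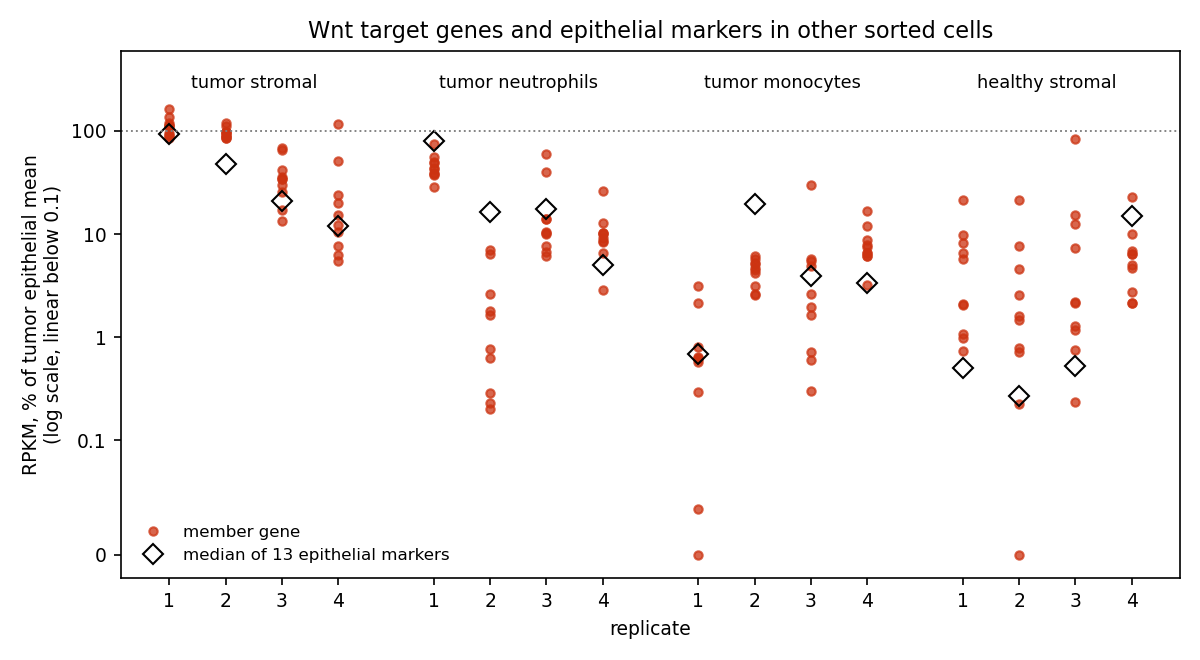
RPKM of each member (points) and the median of 13 epithelial markers (diamonds) as a percentage of the mean in tumor epithelial cells, for the 4 libraries of tumor stromal cells, tumor neutrophils, tumor monocytes and healthy stromal cells, on a log axis that is linear below 0.1. The dotted line is 100%. In tumor neutrophil replicate 2 and tumor monocyte replicate 2 every member lies below the markers (16.4% and 19.6%), and in healthy stromal replicates 1 to 3 most members lie above them.

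Marker and member levels were not in a fixed ratio. Within tumor neutrophil replicate 2 the single markers ran from 1.56% to 283.7% of their tumor epithelial mean, while Notum was at 0.0236, Tcf7 at 0.0192 and Lef1 at 0.00745 RPKM there. Healthy epithelial libraries had marker levels of 46.2% to 216% beside medians of 2.37% to 11.8% over the members, which gives the ratio in epithelium that carries no transgene. Healthy stromal replicates 1 to 3 had marker levels of 0.267% to 0.526%, and 10, 8 and 9 members lay above them, led by Tcf7 at 21.6%, 21.6% and 83.2%. By the mean over markers in place of the median, 1, 2 and 2 members lay above in these 3 libraries, and 3 in each of tumor stromal replicates 3 and 4. Healthy stromal replicate 4 had a marker level of 14.9% with 1 member above it, Axin2 at 23.1%. In blood, marker levels were 0.0562% to 0.453% and the member medians 0.113% to 0.985%.

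In blood no member exceeded 1.6 RPKM, and apart from Ascl2, Znrf3 and Tcf7 the highest value was 0.256 RPKM, that of Notum in healthy monocyte replicate 4. Of 4 members tested between blood neutrophils of tumor-bearing and healthy mice, Ascl2 was called lower in tumor-bearing mice, where 2.22% of the 13360 genes tested were called lower. Ascl2 was at 0.0161, 0.00988, 0 and 0.0568 RPKM in tumor-bearing and 0.496, 0.441, 0.185 and 0.364 RPKM in healthy mice (log2 fold change -3.99, SE 0.76, edgeR adjusted p = 0.0150). The groups did not overlap, and the call was lost without replicate 1 or replicate 2 of the tumor-bearing mice. In blood monocytes, 5 members were tested and edgeR called 0, with 2 at an unadjusted p under 0.05 (Rnf43 and Tcf7) and 0 called by limma-voom or DESeq2, where 0.209% of the 15313 genes tested were called in either direction. Ascl2 in blood monocytes was at 0.556, 0.229, 0.0567 and 0.188 RPKM in tumor-bearing and 0.0529, 0, 0.151 and 0.0972 RPKM in healthy mice, with overlap. Between both myeloid types, Ascl2 also differed in how it changed from blood to tumor (neutrophils minus monocytes, 6.86 on the log2 scale, SE 1.67, edgeR adjusted p = 0.0286), the only 1 of 9 members tested to do so, where 3.99% of 17465 genes did. This difference missed the threshold after omission of 7 of the 16 libraries, 1 at a time. Ascl2 had not passed the filter in the separate comparisons of tumor with blood for neutrophils or for monocytes. It had at most 5.86 expected counts in a blood neutrophil library of tumor-bearing mice and 9.95 in a tumor monocyte library. It entered the interaction test through the other groups, so the difference is a description.

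Genes with a pattern most like that of the members were ranked by Pearson's r over the 40 libraries between log2(RPKM + 1) and the mean of the members' standardized values, among 13891 genes with a mean of at least 1 RPKM in some group. The closest were Fgfrl1 (0.980), Mycl (0.979), Bex2 (0.978), Bex1 (0.975), Ccdc120 (0.974), S100a14 (0.970), Krt23 (0.968), Gm17847 (0.966), Sox4 (0.965) and Slc9a3 (0.964). Krt23, a keratin gene, had mean levels of 15.6 RPKM in tumor and 0.365 RPKM in healthy epithelial cells, and Mycl, of the Myc family, 3.46 and 0.688 RPKM. Bex1 and Bex2 are near-identical copies, so reads may have been assigned to either gene.

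Several members share sequence with annotated neighbors, and whether strand was used in the counting is not given in the sources used here. On the same strand, Nkd1 overlaps Gm45496, Rnf43 overlaps 1110028F11Rik, Lef1 overlaps Gm42449 and Tcf7 overlaps Gm26551, which strand could not separate. On the other strand, Axin2 overlaps Gm11670, Lgr5 overlaps A930009A15Rik, Notum overlaps Notumos and Myadml2os, and Tcf7, Lef1 and Rnf43 overlap A630014C17Rik, Gm43352 and Gm25968. Of the neighbors other than Gm45496, the highest mean in tumor epithelial cells was 0.761 RPKM, that of Gm11670, against 11.9 RPKM for Axin2. Ascl2, Znrf3 and Sp5 overlap no annotated gene.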

How the data were processed

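The authors mapped reads to mouse genome mm10, with Bowtie2 among the tools of the submitters' processing notes, and deposited expected counts without normalization and RPKM values for 45706 Ensembl genes. RNA had been amplified before library preparation. Expected counts were rounded (99.6% of nonzero values were not whole). Each comparison used its own libraries, genes kept by filterByExpr, TMM scaling and edgeR 4.0.16 (quasi-likelihood, robust; R 4.3.3), and tumor cell types were compared over 16 libraries. Standard errors in edgeR were calculated from each fold change and its test statistic. The fitted model was tested on simulated data. RPKM means were compared with 2-sided exact permutation tests. Symbols and positions came from GENCODE M21, on the same assembly as mm10. Alternatives were DESeq2 1.42.0, limma-voom from limma 3.58.1, other filters, RLE size factors, no fold threshold, no mitochondrial genes, limma on log2 RPKM with pseudocounts of 1 and 0.1, all 40 libraries, replicate blocks and leaving out libraries. A fit without replicate 4 of the healthy epithelial and stromal cells was added after seeing the data. The members, gene lists and alternatives were chosen with earlier results of these data known. Named genes were the members, Apc, the 4 called genes of each pathway list with the largest change in epithelial cells, and the 10 genes most like the members. The label gives replicate 3 to a pair of tumor stromal libraries, one of which was named replicate 4. Expected counts of at most 3 in every library of a group were given no fold change.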

Additional observations from a re-analysis of the deposited data

Results flagged for a closer look

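Single libraries stood apart from the other 3 of their group in 6 of the 47 combinations of member and group that had a library of at least 0.5 RPKM, and chance alone picks out about 1 in 20. Of these, 3 concern tumor neutrophil replicate 1, with Notum at 4.98 RPKM against 0.0236 to 0.662 in the others, Rnf43 at 3.28 against 0.540 to 0.834 and Znrf3 at 3.94 against 0.645 to 1.19. The same library had the highest level of the 13 epithelial markers among tumor neutrophils, and their part was not tested. Axin2 was at 2.75 RPKM in healthy stromal replicate 4 against 0.551 to 0.867, in the healthy stromal library with the highest level of epithelial markers. Rnf43 was at 9.86 RPKM in tumor epithelial replicate 2 against 7.81 to 8.11. Tcf7 was at 1.60 RPKM in healthy blood monocyte replicate 2 against 0.190 to 0.280.

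Changes that differed between cell types in an edgeR interaction were those from healthy colon to tumor of Lgr5 (log2 difference, epithelial minus stromal, -3.93), Ascl2 (-6.77), Rnf43 (-3.38), Lef1 (1.79) and Tcf7 (2.73), and the change from blood to tumor of Ascl2 (neutrophils minus monocytes, 6.86). The last rests on few counts in blood neutrophils and tumor monocytes and is a description.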

How the results depend on the processing

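The 8 members called between tumor and healthy epithelial cells, the 10 between tumor epithelial cells and monocytes, and the 0 between tumor epithelial and stromal cells and between blood monocytes held at each omission of 1 library. Omitting 1 library gave 3 to 9 members for tumor against healthy stromal cells, 5 to 9 for tumor against blood neutrophils, 2 to 4 for tumor against blood monocytes, 0 to 1 for blood neutrophils, 3 to 5 for healthy epithelial against stromal cells, 0 to 8 for tumor epithelial cells against neutrophils, 0 to 5 for tumor neutrophils against monocytes, 2 to 4 for the epithelial against stromal difference in change and 0 to 1 for the neutrophil against monocyte one. Lef1 in tumor against blood monocytes, not called, ran from -0.23 (without tumor monocyte replicate 4) to 1.15, and Ascl2 in epithelial cells to 0.16 in limma on log2(RPKM + 0.1). The cause of these changes was not tested.

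With at least 10 counts in every library, which tests fewer genes, the counts were 4 for epithelial cells, 5 for stromal cells, 0 for neutrophils, 1 for monocytes, 0 for blood neutrophils, 2 for healthy epithelial against stromal cells, 3 for tumor epithelial cells against monocytes, 1 for tumor neutrophils against monocytes, and 2 and 0 for the differences in change. Limma on log2(RPKM + 1) gave 4 for stromal cells, 1 for neutrophils, 0 for monocytes, 0 for blood neutrophils, 0 for healthy epithelial against stromal cells, 7 for tumor epithelial cells against neutrophils, 0 for neutrophils against monocytes, and 1 and 0 for the differences in change. With a pseudocount of 0.1 these were 9 for tumor epithelial cells against neutrophils, 0 for neutrophils against monocytes and 2 for the epithelial against stromal difference. Limma-voom gave 3 for healthy epithelial against stromal cells, 8 for epithelial cells against neutrophils, 1 for neutrophils against monocytes and 2 for the epithelial against stromal difference. DESeq2 gave 7 for epithelial cells against neutrophils, 8 for neutrophils against monocytes and 3 for the neutrophil against monocyte difference. RLE size factors gave 5 and the omission of mitochondrial genes 4 for epithelial cells against neutrophils. Without a filter, neutrophils against monocytes gave 1 and the epithelial against stromal difference 3. The fit of all 40 libraries gave 10 for neutrophils, 6 for monocytes, 7 for epithelial cells against neutrophils, 6 for neutrophils against monocytes, and 3 and 2 for the differences. Calls over all genes moved with the setting too. For tumor against blood neutrophils they were 2229 of 13674 in the main fit and 5995 of 22122 in that of all 40 libraries. Tumor neutrophils against monocytes had 2629 of 19026 in the main fit and 4229 in DESeq2. Higher or lower member counts are therefore not results about the members alone. Without tumor stromal replicates 1 and 2 the epithelial against stromal difference gave 2. With the 50 abundant tumor epithelial transcripts in place of the median over markers, the epithelial level moved from 19.6% to 6.49%, 3.96% to 7.66% and 3.33% to 6.29% in tumor monocyte replicates 2, 3 and 4, from 80.8% to 49.0%, 17.4% to 11.0% and 5.01% to 8.11% in tumor neutrophil replicates 1, 3 and 4, and from 47.6% to 83.6% and 12.1% to 7.79% in tumor stromal replicates 2 and 4. With the mean over markers it moved from 16.4% to 46.5% in tumor neutrophil replicate 2, from 20.9% to 36.4% and 12.1% to 21.9% in tumor stromal replicates 3 and 4, and from 0.695% to 1.44% in tumor monocyte replicate 1. The other levels moved by less than 1.5 times.

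Replicate numbers did not pair the libraries, since the correlations of deviations from the group means ran from -0.151 to 0.251 and no comparison had all of them above 0.1. With the replicate block the counts were 3 for healthy epithelial against stromal cells, 1 for epithelial cells against neutrophils, 1 for neutrophils against monocytes and 2 for the epithelial against stromal difference. The block on the number in the titles gave 0 for epithelial cells against neutrophils and 0 for neutrophils against monocytes. It was fitted only among the tumor cell types. Some titles are also shared between tumor and blood or between healthy epithelial and stromal cells, and those tests did not pair them.

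The RPKM values move the balance of calls. Over all genes, the median epithelial change was -0.01 on the log2 scale in edgeR, 0.19 with a pseudocount of 1 and 0.58 with 0.1, and the share of calls that were higher was 48.8%, 61.8% and 73.7%. In stromal cells that share was 40.3%, 18.1% and 24.5%. The depth limits what can be said of Sp5, Lef1, Notum and Nkd1 in healthy epithelium, of Ascl2 and Sp5 in healthy stroma and of most members in blood, where few reads were counted, and intervals between so few libraries stay wide.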

Other observations

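Of the 18 genes of the receptor and R-spondin list, 15 were tested between tumor and healthy stromal cells, 1 rose, 6 fell and 8 were not called, where 3.39% of all genes rose and 5.01% fell. The R-spondin genes Rspo3 and Rspo1, which encode secreted ligands of Lgr5 that amplify Wnt signaling, fell by 5.61 and 3.94 on the log2 scale (edgeR adjusted p = 0.0087 and 0.0275). Rspo3 was at 0.0328 ± 0.0351 RPKM in tumor and 2.15 ± 1.45 RPKM in healthy stroma (SD, n = 4). The Frizzled receptor genes Fzd1 (log2 fold change -3.56), Fzd2 (-3.08), Fzd8 (-1.78) and Fzd7 (-1.68) fell as well, and Lgr6 rose (4.44). Fibroblast markers moved with them, at 6.03 to 24.1 RPKM in tumor and 359.5 to 2017 RPKM in healthy stroma, and their part was not tested. These genes were chosen after their values were seen.

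Of the 25 other Wnt targets, 23 were tested in stromal cells, 9 rose and 1, the inhibitor gene Nkd2, fell (log2 fold change -2.68, edgeR adjusted p = 0.0319). Nkd2, the paralog of Nkd1, was at 3.09 ± 1.26 RPKM in healthy stroma and 0.387 ± 0.269 RPKM in tumor stroma. Nkd1 had means of 0.688 ± 0.420 and 10.9 ± 8.46 RPKM there. Its tumor stromal replicates 1 to 4 held 19.4, 16.8, 5.23 and 2.14 RPKM, replicates 1 and 2 being at the level of sorted tumor epithelium. The parts of epithelial transcripts and of the lower fibroblast markers in the 9 rises and in these 2 genes were not tested.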
